A study of Mus musculus with 360 samples.

Results

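The cells described are the 78 tibial growth plate cells (GP) in which 500 or more genes were read and 10000 or more reads were counted, of 85 deposited for this tissue and of 325 cells of 360 that passed the same filter in the whole series. The study sorted single skeletal stem and progenitor cells from CD-1 wild type mice at postnatal day 3 and compared the growth plate of the tibia, the cartilage from which a long bone lengthens, with the posterior frontal, sagittal and coronal sutures of the skull. The sort kept cells with CD51 and CD200 and removed those with 6C3, CD105, Thy1.1, Thy1.2, Tie2, CD45 or Ter119. Cells lay on 2 plates, 20 on plate 1 and 58 on plate 2, and all 7 cells removed by the filter came from plate 2. No animal was named for any cell, so the tissue counts as 1 sample. The values below describe these cells, carry no p-value, and the plates give the only check within the tissue.

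A growth plate is ordered from resting through proliferating to hypertrophic chondrocytes. Hypertrophic cells make collagen X and, at the front towards the bone, matrix proteases and proteins of mineralizing matrix. The cartilage is wrapped in the perichondrium, a fibrous sheath that continues into the periosteum, feeds osteoblasts to the bone collar and joins tendons and ligaments at their insertions. A tissue piece cut from this region can hold cells of all these kinds.

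Reads per cell had a median of 524477 (range 12375 to 1168856). The ribosomal RNA gene Rn45s took 12.6% to 94.9% of them, so levels are given as CPM, the count of a gene scaled to 1000000 reads other than Rn45s, which had a median of 369309 per cell (3628 to 871328), 224763 on plate 1 and 417671 on plate 2. A median cell had reads in 2967 genes. In 2 cells fewer than 10000 reads other than Rn45s remained, and there 1 read was worth up to 276 CPM. The method reads whole transcripts and CPM is not divided by transcript length, so levels are compared between cells and not between genes. A gene is called high in a cell at 100 CPM or more.

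The 7 genes that mark the tissue in this series were each high in a minority of cells. Col10a1 (chromosome 10:34109787-34116891, plus strand, mm9), the collagen of hypertrophic cartilage, was high in 11 cells, which is 14.1% (95% exact binomial interval 7.26 to 23.8). Col2a1 (15:97806033-97835155, minus strand), the main collagen of cartilage, was high in 14 cells (17.9%, 10.2 to 28.3) and had a read in 21. Comp (8:72897447-72905964, plus strand), a matrix protein of cartilage and tendon, was high in 25 cells (32.1%, 21.9 to 43.6). These 3 genes were thus each high in a minority of the cells that the label places in the growth plate, while at least 1 gene of a chondrocyte list of 20 was read in 75 of the 78.

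Ostn (16:27307575-27351298, plus strand), which encodes the secreted peptide osteocrin, was high in 22 cells (28.2%, 18.6 to 39.5). Spon2 (5:33556167-33560887, minus strand), a secreted matrix protein, was high in 20 cells (25.6%, 16.4 to 36.8). The hindlimb patterning genes Hoxa10 (6:52181196-52190853, minus strand) and Pitx1 (13:55926415-55937553, minus strand) were high in 18 cells (23.1%, 14.3 to 34) and 15 cells (19.2%, 11.2 to 29.7). The intervals cover counting error only, since reads carry no molecular identifiers and cells are not animals.

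The hindlimb genes were set beside the tissue label. Pitx1 and Hoxa10 were taken as markers of this tissue with earlier results of these data known, so they give no independent check. Pitx1 had a read in 39 of the 78 cells and Hoxa10 in 27, and neither had a read in any of the 87 posterior frontal, 86 sagittal and 74 coronal cells that passed the filter. With a count of 0, up to 3.45%, 3.49% and 4.05% of the cells of these sutures could still carry a read. Tbx4, the hindlimb T-box gene, was read in 15 growth plate cells and in 1 posterior frontal cell. At least 1 of the 13 hindlimb position genes was read in 59 of the 78 cells.

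**Figure D1:**
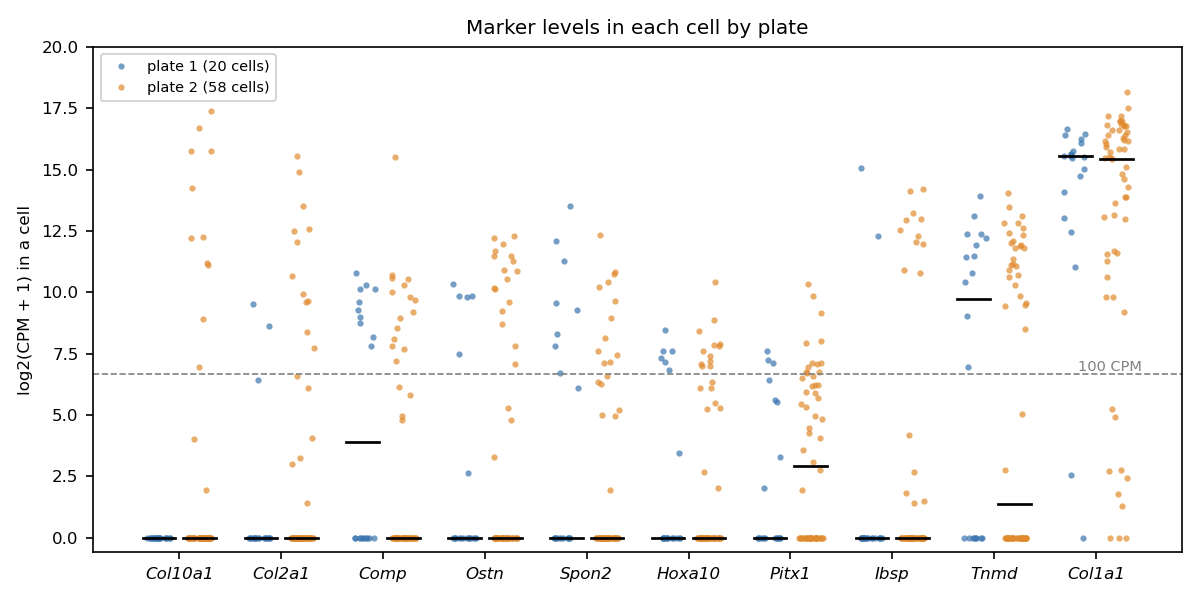
Level of 10 marker genes in each cell, as log2(CPM + 1), with plate 1 in blue (20 cells) and plate 2 in orange (58 cells). Black bars are medians and the dashed line is 100 CPM. Col10a1 was at 0 in every plate 1 cell, while Col1a1 had medians of 47589 CPM on plate 1 and 44426 CPM on plate 2.

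The 11 cells with high Col10a1 all came from plate 2. Their Col10a1 level ran from 123 CPM to 173869 CPM with a median of 4845 CPM. All 20 cells of plate 1 were at 0, which allows a share of up to 15% with a read there. Beyond the 11 cells, Col10a1 had reads in 2 more cells, at 2.81 and 15.3 CPM, and both of these were cells with glial genes described below.

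The same cells carried the other genes of late cartilage. Mmp13, a collagenase of the cartilage to bone border, was high in 9 of the 11 cells (median 10659 CPM) and in 8 of the other 67. Spp1, osteopontin, was high in all 11, from 1545 to 502740 CPM with a median of 142646 CPM. It was not limited to them, with a read in 42 of the 78 cells. Spp1 and Col1a1 were both high in 12 cells. Their correlation was -0.60 over all cells, 0.13 on plate 1 and -0.72 on plate 2. Col2a1 was high in 8 of the 11 (median 1621 CPM) and in 6 of the others, and Col9a1 and Col9a3, which encode chains of the cartilage collagen IX, were high in 7 and 8 of the 11 against 2 and 4 of the others. Ibsp, bone sialoprotein, was high in 7. Ihh, the hedgehog ligand of prehypertrophic cells, had no read in any of the 78 cells, which allows a share of up to 3.85%.

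Type I collagen was nearly missing from these cells. Col1a1 had a median of 4.34 CPM in the 11 cells and of 51157 CPM in the other 67, and in the 11 cells it was above 100 CPM in the cells of wells A9 (580 CPM) and D9 (3257 CPM) alone. Col3a1, Postn and Tnmd followed the same division, and Postn had a median of 0 in the 11 cells against 4865 CPM in the others. Across all 78 cells the correlation of log2(CPM + 1) of Col10a1 was -0.78 with Col1a2 and -0.75 with Col1a1, and on plate 2 alone it was -0.82 and -0.84. The plot of Spp1 against Col1a1 shows the 11 cells at high Spp1, 9 of them with less than 100 CPM of Col1a1.

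The genes whose pattern over the 78 cells was most like that of Col10a1, chosen by correlation after the values were seen, were F13a1 (r = 0.80), a transglutaminase of hypertrophic cartilage, Cd24a (r = 0.78), a small cell surface glycoprotein, Col9a3 (r = 0.77), Col9a1 (r = 0.76), Col2a1 (r = 0.71) and Spp1 (r = 0.70). F13a1 had a read in 9 cells, all of which had Col10a1 reads. After thinning of each cell to 100000 non-Rn45s reads, possible in 67 cells, these values were 0.87, 0.73, 0.77, 0.71, 0.75 and 0.69. These correlations rest on 13 cells with a Col10a1 read and share the cells, plates and libraries.

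The 11 cells differed among themselves. The cells of wells C2 and D1 had Col10a1 at 2204 and 4757 CPM and Spp1 at 10669 and 8132 CPM, with no read of Mmp13 or Ibsp. The cell of well F10 had the highest Col2a1 (48224 CPM), Col9a1 (9202 CPM) and Comp (46833 CPM) of all 78 cells together with 19164 CPM of Ibsp, and it alone gave 70.8% of the summed Comp level. The cell of well D9 had the lowest Col10a1 (123 CPM) with 32966 CPM of Cxcl12, the chemokine of marrow stromal cells, 2303 CPM of Alpl and 514 CPM of Lepr. Reads other than Rn45s ran from 26739 in well B2 to 871328 in well F10.

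Mmp13 was the gene nearest in pattern to Spp1, and Spp1 the gene nearest to Mmp13 (r = 0.72 over 78 cells, 0.73 on plate 2), while Mmp13 had no read on plate 1. Their promoters are shown because both genes are known targets of Runx factors, whose core motif is TGTGGT. The 250 bases before the start are given 5′ to 3′ in lower case, from RefSeq on GRCm38.p6, with each TGTGGT or its reverse complement ACCACA in capitals.
Mmp13, chr9:7272264-7272513, plus strand: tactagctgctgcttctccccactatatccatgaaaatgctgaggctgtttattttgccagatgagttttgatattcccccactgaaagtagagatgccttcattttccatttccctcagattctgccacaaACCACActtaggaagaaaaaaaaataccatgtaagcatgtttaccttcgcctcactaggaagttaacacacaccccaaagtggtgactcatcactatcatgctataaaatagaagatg
Spp1, chr5:104434861-104435110, plus strand: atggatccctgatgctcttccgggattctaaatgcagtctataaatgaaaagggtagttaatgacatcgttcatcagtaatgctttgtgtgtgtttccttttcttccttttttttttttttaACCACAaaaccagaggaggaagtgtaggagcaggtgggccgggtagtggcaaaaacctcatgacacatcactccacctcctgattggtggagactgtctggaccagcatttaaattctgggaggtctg
The motif lay 118 bases before the start in Mmp13 and 128 bases before it in Spp1, on the minus strand in both. It occurred on either strand in 14.05% of all 32851 promoters of that length, in 2 of 13 promoters of 7 matched genes of a hypertrophic chondrocyte list of 8, in 5 of 16 promoters of 13 matched genes of an osteoblast list of 18, and in 7 of 76 promoters of 64 matched genes of the largest group of covarying genes described below. No match was found in this window of Col10a1 or Ibsp, or before the other start of Spp1. A match is a match of letters only.

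**Figure D2:**
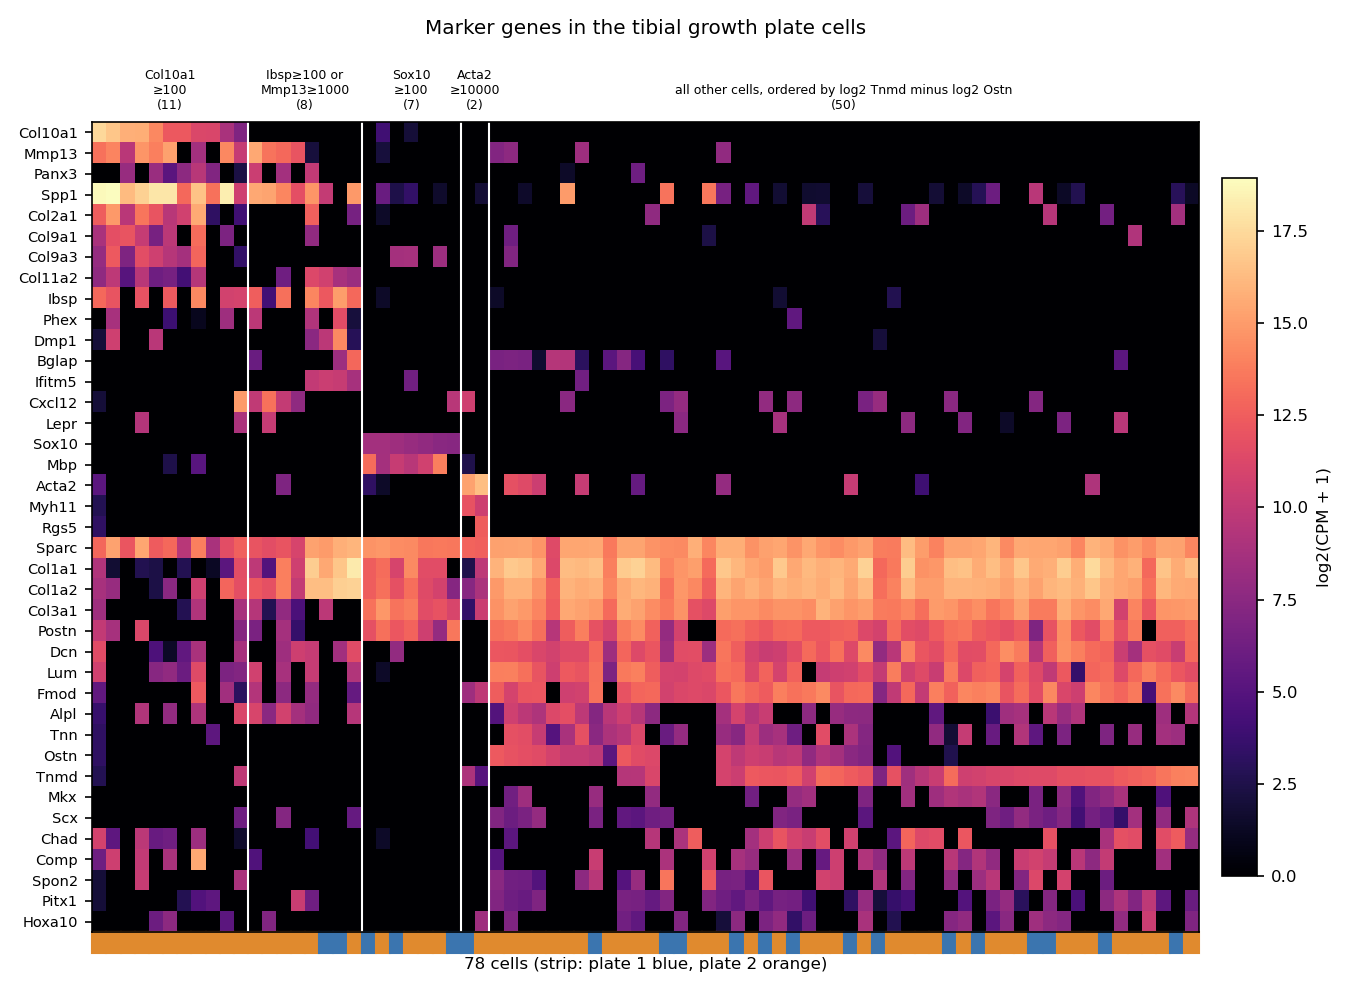
Level of 39 marker genes (rows, log2(CPM + 1)) in the 78 cells (columns), with cells in blocks by Col10a1, by Ibsp or Mmp13, by Sox10 and by Acta2 (11, 8, 7 and 2 cells) and the other 50 cells ordered by log2 Tnmd minus log2 Ostn. In the Col10a1 block Col1a1 is low in 9 of 11 cells, and in the Sox10 block Fmod and Tnmd are at 0 in all 7 cells.

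Ibsp, a bone matrix protein made as mineral forms, was high in 13 cells (16.7%, 9.18 to 26.8). In 7 of them Col10a1 was high too, and in 2 more Mmp13 was high without Col10a1. In the other 4, 2 on each plate, Col1a1 was high and Col10a1 and Mmp13 were below 100 CPM. These 4 osteoblast-like cells had 4961, 8094, 18096 and 34544 CPM of Ibsp, and Col1a1 from 47133 to 292939 CPM, the highest of all cells.

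Of the other osteoblast genes, Ifitm5, a membrane protein of mineralizing osteoblasts, was high in all 4 (433 to 1378 CPM) and in 0 of the other 74. Dmp1, a matrix protein of osteocytes, reached 19930.1 CPM in well C12 of plate 1, which gave 85.5% of its summed level, and Bglap, osteocalcin, reached 7805 CPM in well F8 of plate 2, or 76.9% of its summed level. Bglap and Bglap2 are near-identical copies and reads may have been split between them. Postn, Tnmd, Comp, Spon2 and Acta2 had no read in any of the 4. Genes of cartilage were not absent from them. The summed CPM of the chondrocyte list was 4961 and 2108 in wells A5 and C12 of plate 1. In wells A6 and F8 of plate 2 it was 10913 and 2306, against a median of 2510 over all 78 cells. Over the 78 cells Col11a2, a cartilage collagen gene, was nearest in pattern to Ibsp (r = 0.81). The cell of well A5 on plate 1 had 3628 reads other than Rn45s in all, so 1 read there was worth 276 CPM. Rn45s took 94.88% of the reads in well A5 and 83.96% in well C12, against a plate 1 median of 24.22%. In wells A6 and F8 of plate 2 it took 37.86% and 29.37%. The correlation of Ibsp with the percent of reads from Rn45s was 0.96 on plate 1 and -0.22 on plate 2. Levels in the 2 plate 1 cells thus rest on few reads or a small share of reads. Without the 2 cells under 10000 reads other than Rn45s, Ibsp was high in 12 of 76 cells (15.8%).

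In 4 plate 2 cells Mmp13 was above 1000 CPM without high Col10a1. Their levels were 4090, 8128, 11254 and 45770 CPM of Mmp13, and Spp1 ran from 3309.8 to 46056 CPM. Cxcl12 was high in all 4, at 212, 971, 1087 and 10518 CPM, and Alpl, the phosphatase of mineralizing cells, was high in all 4. Neither trait was theirs alone. Alpl was also high in 18 of the 22 cells with high Ostn. A marrow stromal list of 12 genes that holds Cxcl12 summed to 100 CPM or more in 50 of the 78 cells. Tnc, tenascin C, had a median of 10129 CPM in the 4 cells and 995 CPM in the other 74. Col2a1, Col9a1 and Col9a3 had no read in any of the 4, and Col11a2 was read in 1 of them, at 75.99 CPM. Cxcl12 and Lepr, the leptin receptor of marrow stromal cells, were both high in 3 of the 78 cells.

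A glial group of 7 cells, 3 on plate 1 and 4 on plate 2, held all reads of Sox10, the neural crest and glial transcription factor. Sox10 ran from 164 to 391 CPM in them and was 0 in the other 71. Mbp, myelin basic protein, was high in 6 of the 7 and in no other cell. Postn was high in all 7 (median 4634 CPM), as was Col3a1, while Fmod, Tnmd, Runx2, Alpl, Comp and Spon2 had no read in any of them. Of the sorted proteins, Cd200 was read in 6 of the 7 cells and Itgav, which encodes CD51, in 5, and 1 cell had a read of neither. Over all 78 cells Cd200 was read in 38 and Itgav in 35, and at least 1 of them in 54.

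Acta2, smooth muscle actin, was high in 10 cells (12.8%, 6.32 to 22.3) of unlike levels. It reached 39913 CPM in well A8 of plate 1 and 85895 CPM in well A3 of plate 2, which together held all the cells above 10000 CPM. Those 2 cells also had the smooth muscle genes Myh11 (3959 and 1482 CPM), Cnn1 (1253 and 2197 CPM) and Tagln (2951 and 7340 CPM), had no Postn, and had Col1a1 at 4.89 and 893 CPM. The other 8 cells had Acta2 from 122 to 3538 CPM without a read of Myh11 or Cnn1, and Ostn was high in 6 of them.

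Genes of fibrous tissue were high in most cells. Col1a1 was high in 66 cells (84.6%, 74.7 to 91.8), from 0 through a median of 47589 to 104336 CPM on plate 1 and from 0 through 44426 to 292939 CPM on plate 2. Postn, a matricellular protein of periosteum and ligament, was high in 60 cells and Fmod, the tendon proteoglycan fibromodulin, in 54, and both were high in 47 cells. Col3a1, Dcn and Lum were high in 64, 59 and 58. Leaving aside the cells with high Col10a1, Ibsp, Mmp13 or Sox10 or with Acta2 above 10000 CPM, Postn or Fmod was high in 45 of the remaining cells and in all but 1 of them. Sparc, osteonectin, was high in all 78 cells, from 474 CPM to 82591 CPM.

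The tendon gene Tnmd (X:130385519-130400116, plus strand), tenomodulin, was high in 39 cells (50%, 38.5 to 61.5), which is 12 of 20 cells on plate 1 and 27 of 58 on plate 2. Its level reached 15477 CPM on plate 1 and 16817 CPM on plate 2, with medians of 957 and 2.90 CPM. In the 41 cells with a Tnmd read, Fmod was also read every time. The tendon transcription factors were sparser, with Scx high in 14 and Mkx in 17 cells. Tnmd was high in 9 of the 14 and in 15 of the 17, against 39 of all 78 cells. The correlation with Tnmd was 0.31 for Scx (0.11 on plate 1 and 0.39 on plate 2) and 0.42 for Mkx (0.36 and 0.44). Tnmd was most alike in pattern to Abi3bp (r = 0.79), Mfap4 (r = 0.77) and Il11ra1 (r = 0.75), again chosen after the values were seen.

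Ostn was high in 5 cells of plate 1, up to 1295 CPM, and 17 cells of plate 2, up to 5039 CPM, and was not exclusive with Tnmd. Both were high in 14 cells, Ostn without Tnmd in 8 and Tnmd without Ostn in 25. The correlation over the 78 cells was 0.13, and 0.29 and 0.09 on the plates. The cells high in Ostn with Tnmd at 0 had Alpl high in 7 of 8, Bglap in 5, Tnn, tenascin W, in 6, and Acta2 in 4. The 25 cells with Tnmd and without high Ostn had these genes high in 8, 0, 8 and 2 cells, and instead had high Cilp2, a cartilage intermediate layer protein, in 16, Mkx in 11, Chad, chondroadherin, in 11 and Kera, the proteoglycan keratocan, in 8. Of the 8 cells with Ostn alone, 2 had high Cilp2 and Mkx, and high Chad or Kera was found in 0. The 14 cells with both genes lay between for Alpl (11 of 14) and Tnn (10), and had Kera high in 3. They did not lie between for Cilp2, which was high in 10, or for Chad. Chad was high in 19 of all 39 cells with high Tnmd, with or without Ostn, against 11 of the 25 without high Ostn. The counts are small, and no test of these differences was made.

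**Figure D3:**
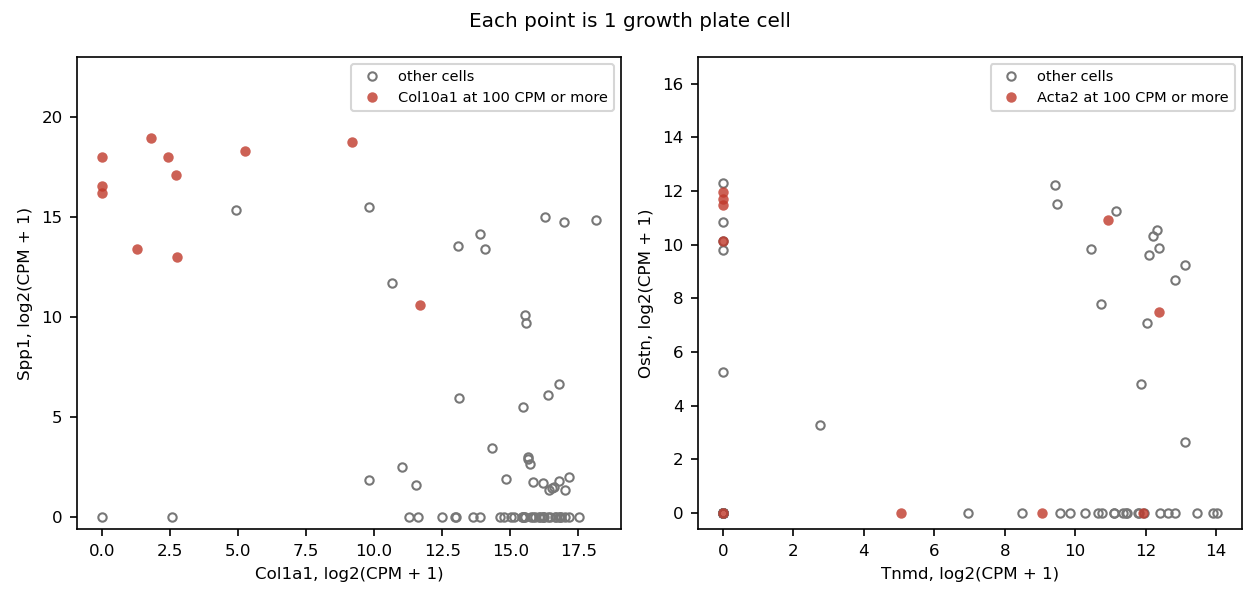
Each point is 1 cell, on log2(CPM + 1) axes. The left panel sets Spp1 against Col1a1 with the 11 cells of high Col10a1 in red, 9 of them below 100 CPM of Col1a1, and the right panel sets Ostn against Tnmd with the 10 cells of high Acta2 in red, 4 of which have high Ostn with Tnmd at 0.

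By pattern over the 78 cells, Ostn was nearest to Tnn (r = 0.59, and 0.60 on each plate), Fam198a (r = 0.58) and Lrrc15 (r = 0.57). On plates 1 and 2 Fam198a stood at 0.60 and 0.57, but Lrrc15 at 0.17 and 0.65. The correlation with Alpl was 0.47, and 18 of the 22 cells with high Ostn had high Alpl, against 36 of all 78 cells. Spon2 went with the water channel gene Aqp1 (r = 0.60, 0.91 on plate 1 and 0.47 on plate 2). Spon2 was above 1000 CPM in 8 cells, 3 on plate 1 and 5 on plate 2. The highest were well A3 of plate 1 (11592 CPM) and well F5 of plate 2 (5180 CPM). Those cells also had Thbs4, a thrombospondin of tendon, at 7675 and 11181 CPM and Spp1 at 10852 and 11999 CPM, with Tnmd and Ostn at 0. The correlations of Comp, Hoxa10 and Pitx1 with their nearest genes were lower, with highest values of 0.52, 0.51 and 0.53.

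Beyond the 14 cells of high Col2a1, genes of cartilage were spread over other cells. Col2a1 was high in 2 cells of plate 1 (up to 739 CPM) and 12 of plate 2 (up to 48224 CPM), and in 6 of the 14 Col10a1 was below 100 CPM. Acan, aggrecan, was high in 39 cells and correlated with Col2a1 at 0.25. Chad was high in 24 cells and Sox9, the chondrocyte transcription factor, in 8. Of the resting zone list of 6 genes, the summed level had a median of 14.7 CPM, 169.8 CPM on plate 1 and 5.97 CPM on plate 2, and a highest value of 2313 CPM.

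The lists of cell type genes show how unevenly each was held. The summed level of the perichondrium and periosteum list of 16 genes had a median of 18666 CPM (0 to 58844), and its 5 highest cells gave 17.2% of the total over cells. The fibroblast list (median 29189 CPM) and the tendon list (7669.6 CPM, 14711 on plate 1 and 6995 on plate 2) had 16.9% and 21.4% from their 5 highest cells. For the hypertrophic chondrocyte list of 8 genes the median was 159 CPM and the 5 highest cells gave 76.5%, for the pericyte and smooth muscle list 82.9% and for the neural and glial list 92.4%. The osteoblast list, which holds Col1a1 and Sparc, was as broad as the fibrous lists with 19.2%, and the chondrocyte list gave 52.3%. Most of the summed level of the hypertrophic, pericyte and smooth muscle, and glial lists thus came from few cells. That of the fibrous and osteoblast lists came from many. Lower levels were wider spread, with 100 CPM or more of the hypertrophic list in 43 of 78 cells. The pericyte and smooth muscle list reached 100 CPM in 60 cells and the neural and glial list in 9. Summed levels of the perichondrium and fibroblast lists, which share no gene, correlated at 0.82 (0.72 and 0.86 on the plates), perichondrium and tendon at 0.75, and fibroblast and hypertrophic chondrocyte at -0.56.

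Markers of cells that the sort was meant to remove were rare. Of 10 endothelial genes 2 had a read, in 4 cells in all, with Tek, Pecam1, Cdh5 and Kdr at 0 in every cell. Their summed level reached 1302 CPM in well A8 of plate 1 and 1493 CPM in well A3 of plate 2. Those are the 2 cells with Acta2 above 10000 CPM. Of 7 erythroid genes Alas2 alone had reads, in 2 cells. The haematopoietic list had reads in 16 cells, with Laptm5 in 9 and Ptprc, which encodes CD45, in 1, and a highest summed level of 342 CPM. Of the genes of the proteins selected against, Thy1, Eng, which encodes CD105, and Tek, which encodes Tie2, had no read in any cell, and Enpep, which encodes 6C3, had reads in 3 cells, up to 152 CPM. No cell had reads of both Xist and Y-linked genes (36 with Xist alone, 18 with Y-linked genes alone and 24 with neither).

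Across the 7631 genes read in at least 10% of cells with a mean of at least 10 CPM, the SD of log2(CPM + 1) over cells was set against its trend with the mean, and 63 genes, or 0.826% of those tested, lay at least 1 above it. Of these, 43 also did so on each plate taken alone. The largest excess was that of Col1a1 (SD 5.16, trend 2.13), Spp1 (6.595, trend 3.68) and Col3a1 (5.24, trend 2.496). The next were Fmod (excess 2.47), Postn (2.31), Ogn, the proteoglycan osteoglycin (2.27), Aspn, asporin (2.27), Tnmd (2.21), Col1a2 (2.10) and Lum (2.06).

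Serpinf1, Col12a1, Dcn, Mfap4, Itm2a, Mest, Penk, Mmp13, Col10a1 and C1qtnf3 completed the 20 with the largest excess, from 2.00 down to 1.55. Matrix genes of fibrous tissue made up most of them, and Spp1, Mmp13 and Col10a1 were the genes of late cartilage among them. On plate 1, where Mmp13 and Col10a1 had no read, Col1a1, Fmod and Ogn came at places 1, 2 and 3 and Spp1 at place 163, while on plate 2 Spp1 came at place 1. Col2a1 (1.07) and Ostn (1.06) were just inside the threshold, as was Col6a2 (1.01).

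By list, 6 of 12 tested perichondrium genes, 5 of 9 tendon genes, 3 of 9 fibroblast genes and 4 of 14 osteoblast genes (Col1a1, Col1a2, Spp1 and Ibsp) were among the 63. Of the chondrocyte list 2 of 13 were, Col2a1 and Chad, and of the hypertrophic list 2 of 5. The S phase (12 tested), heat shock (7), hindlimb position (6) and secretory pathway (14) lists had 0. The median excess was 1.04 for the tendon list, 1.00 for the perichondrium list and 0.01 for all tested genes. The lists were chosen with earlier results on these cells known, so their counts are descriptions.

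**Figure D4:**
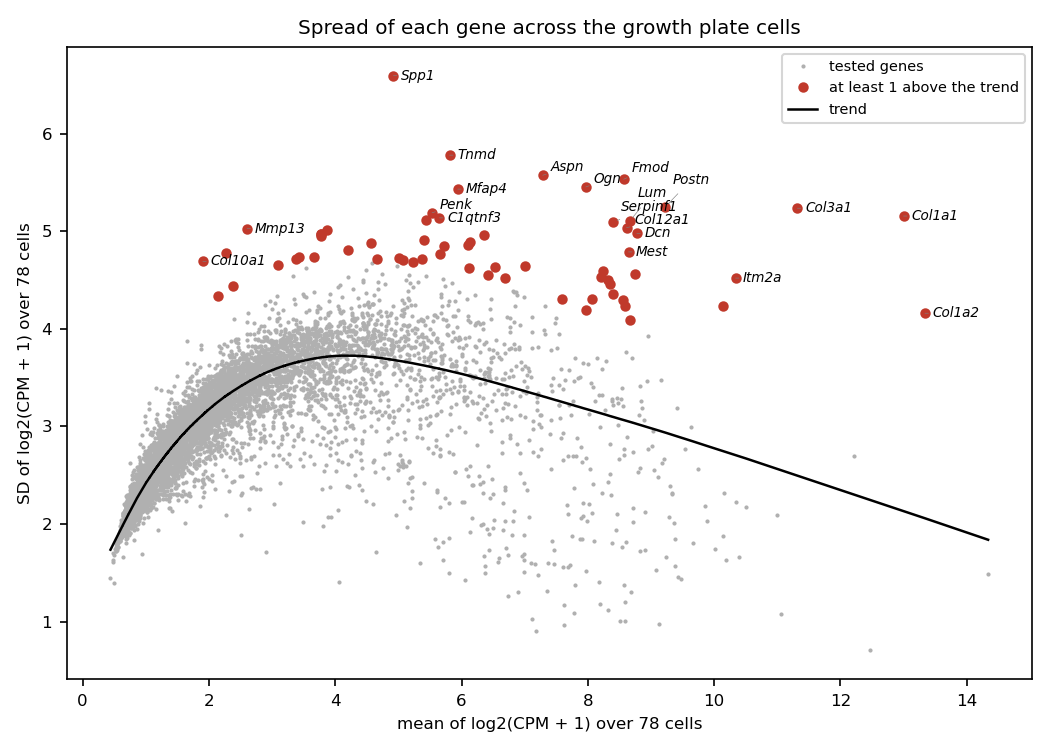
SD of log2(CPM + 1) over the 78 cells (vertical) against its mean (horizontal) for the 7631 tested genes, in grey, with the trend as a black line and the 63 genes at least 1 above it in red. The 20 farthest above the trend are named, with Col1a1 at an SD of 5.16 and Spp1 at 6.595.

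Pairs of genes were compared over the 4398 genes read in at least 25% of cells. Of 9669003 pairs, 325, or 0.00336%, had r of at least 0.7 over all cells and of at least 0.5 on each plate, where the median r of all pairs was 0.08. Of these 325 the strongest was Col1a1 with Col1a2 (r = 0.89, 0.97 on plate 1 and 0.89 on plate 2), the 2 chains of collagen I. It was followed by H19 with Islr (0.89), Aspn with Fndc1 (0.87), Fmod with Ogn (0.86) and 1500015O10Rik with Mfap4 (0.85). Col6a1 with Col6a2 (0.84), chains of collagen VI, and Dcn with Serpinf1 (0.83), decorin and an antiangiogenic serpin, were among the 20 highest as well.

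Joined by shared genes, the 325 pairs formed 11 groups, of which the largest held 87 genes. Its most connected genes were Ogn, in 29 pairs, Clec11a, osteolectin, and Mfap4, a microfibril protein, in 26 each, Fmod in 25 and Col8a2 in 24. It held collagens I, III, V, VI, VIII, XII, XIV and XVI, small proteoglycans (Fmod, Ogn, Aspn, Dcn, Lum, Bgn), fibrillins (Fbn1, Fbn2), Tnmd and Postn, and the imprinted genes H19, Igf2, Mest and Peg3. Of the 63 most variable genes 39 were in it, which is 61.9% of the 63 and 44.8% of the 87. Spp1, Col10a1 and Mmp13 were in none of the groups, and the last 2 had reads in too few cells to be compared. H19 with Mest, Islr and Clec11a show imprinted genes rising and falling with matrix genes, at 0.82 for Islr with Mest and 0.80 for H19 with Clec11a.

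The other groups were small. A group of 9 held 7 ribosomal protein genes with Gapdh and Mir682, a group of 4 held ribosomal protein genes, and 8 were single pairs, among them Egr1 with Fos (r = 0.81) and P4hb with Ppic (0.84), both of the protein folding machinery. After thinning, 225 of the 325 pairs kept r of at least 0.7. Col1a1 with Col1a2 stood at 0.91 then and Fmod with Ogn at 0.85, while P4hb with Ppic stood at 0.49 and the ribosomal pair Rpl32 with Rps29 at 0.23. The points of every pair share cells, plates and depth.

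**Figure D5:**
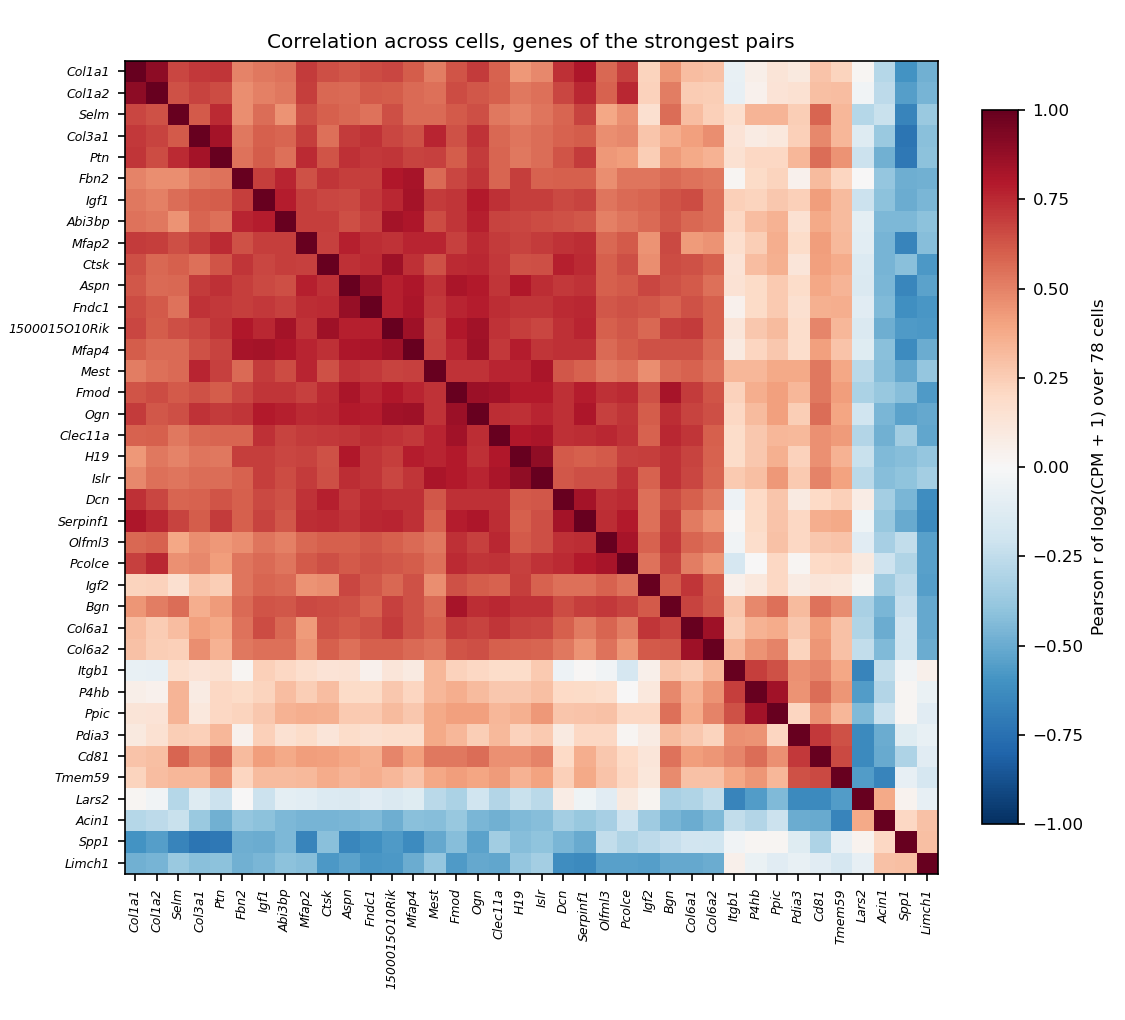
Pearson r of log2(CPM + 1) over the 78 cells, from -1 (blue) to 1 (red), with genes ordered by similarity. The genes are those of the 20 highest and the 10 lowest pairs among those that met the limits on each plate, with 1 gene not drawn. Red marks pairs such as Col1a1 with Col1a2 (0.89) and blue marks pairs such as Ptn with Spp1 (-0.71).

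In the other direction, 200 pairs, or 0.00207%, had r of at most -0.5 over all cells and of at most -0.3 on each plate. Spp1 was in 15 of them, with partners that included the matrix genes Mfap2, Aspn, Postn and Fbln2, the transcription factor gene Nfib and the cell cycle inhibitor gene Cdkn1c. The lowest of the 200 was Ptn, the secreted factor pleiotrophin, with Spp1 (r = -0.71, -0.36 on plate 1 and -0.76 on plate 2). Col3a1 with Spp1 was lower over all cells (-0.73) but stood at 0.02 on plate 1, so it was not among them. Other low values were those of Mfap2 with Spp1 (-0.66) and Acin1 with Tmem59 (-0.66). Selm and Aspn with Spp1 stood at -0.66 and -0.65. After thinning, the pairs of Spp1 with Ptn, Mfap2 and Aspn stood at -0.75, -0.65 and -0.68.

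Lars2, which encodes the mitochondrial leucyl tRNA synthetase, was in 40 of the 200 pairs, Limch1 in 27 and Rpl41 in 24. Lars2 was lower in deeper cells, with r of -0.53 between its level and log10 of the reads other than Rn45s and of 0.76 between its level and the percent of reads from Rn45s, and its 2 lowest partners, Itgb1 (r = -0.66) and Cd81 (-0.64), stood at -0.30 and -0.19 after thinning. Of the 200 opposed pairs 91 kept r of at most -0.5 after thinning.

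Principal components describe the same cells without chosen marker genes. The first, with 17.6% of the variance held by 15 components, had Gatm and the glial gene Sox10 near its high end and Dcn and Col11a1 at its low end. The second (8.93%) ran from Spp1 and Cd24a to Ptn and Mfap4, and the third (8.07%) from Top2a, a gene of dividing cells, to Pou3f1 and Hspa12a.

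Clustering with the number of components and the resolution of the study put the cells into 3 clusters of 30, 27 and 21 cells, which are given by number. Cluster 1 (10 cells of plate 1 and 17 of plate 2) had Tnmd high in 25 and Fmod in 27 of its 27 cells and Spp1 in 0. Cluster 2 (3 and 18 cells) held 7 of the 11 cells with high Col10a1 and 8 of the 13 with high Ibsp, and Col10a1, Laptm5 and Lars2 led it. Its median of 115068 reads other than Rn45s was below those of cluster 0 (528209) and cluster 1 (378358), so depth moved with this division. After thinning to equal reads the 67 cells fell into 2 clusters, of 36 and 31 cells, with an adjusted Rand index of 0.47 to the 3 clusters. Cluster 0 (7 and 23 cells) held 6 of the 7 glial cells, both cells with Acta2 above 10000 CPM and 9 of the 22 cells with high Ostn, so it joined cells with unlike markers. Fgf18, Otor and Gas2 led cluster 1 and Acta2 and Il1rap were among the leading genes of cluster 0. The number of clusters depended on the resolution, with 1 at 0.5 and 10 at 1.5.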

How the data were processed

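Single cells were sorted onto plates and their full-length cDNA was sequenced. The authors deposited raw counts of reads per gene, 1 table per plate, which the submitters' processing notes tie to STAR 2.5.3a, HTSeq and mm9. From these counts CPM was computed here over all reads other than Rn45s, without length scaling. Cells needed at least 500 genes with a read and 10000 reads. Log2 values used a pseudocount of 1. The trend of the SD was a lowess fit (fraction 0.3, statsmodels 0.14.6). Clusters were made with Seurat 5.3.0 from 2000 variable genes, 15 components and resolution 1.0, after Rn45s was removed. Intervals are 95% Clopper-Pearson intervals, and a limit for 0 cells is 3 counts. Scripts for variable genes and pairs were tested on simulated data.

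No test was made, because the labels name no animal. No doublet caller was run. Named genes were the tissue markers, the highest members of each list, the 20 most variable genes, the 20 highest and 10 lowest pairs, and leading genes of clusters and components; companions of markers and genes of single wells were added after their values were seen, and a few genes that the rule names are not reported here. The members and lists were chosen with earlier results of these data known. Alternatives were Rn45s counted, thinning, stricter or no cell filter, single plates, TMMwsp factors (edgeR 4.0.16), other pseudocounts, filters and correlations, and other resolutions and seeds.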

Additional observations from a re-analysis of the deposited data

How the results depend on the processing

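Of 247 alternative values, 201 stayed near the reported value and 46 moved. Near meant inside the 95% interval for a percent of cells and within 1.5-fold for a count. For a list median it meant within the SD of the 2 plate medians. Percents of cells made up 144 of the 247, and 133 of these stayed inside their intervals. Among 64 alternatives for the medians of 8 lists 19 moved, and with Rn45s in the totals the perichondrium, fibroblast and osteoblast medians were 12278, 19352 and 91914 CPM. On plate 1 alone the percent of cells with at least 100 CPM was 0 for Col10a1, 10 for Col2a1, 50 for Comp and 40 for Spon2. Counting any read gave 34.6% for Hoxa10 and 50% for Pitx1, and with Rn45s in the totals Pitx1 was high in 8.97% of cells. The number of most variable genes was 95 on plate 1, 37 with a pseudocount of 10 and 1084 by the squared coefficient of variation, which is on another scale. Pairs rising and falling together numbered 23644 on the 20 cells of plate 1, 213 by Spearman's rho and 617 among genes read in 10% of cells. Opposed pairs numbered 114 with Rn45s counted, 346 after thinning, 606 with the stricter cell filter, 76549 on plate 1, 501 on plate 2, 111 with TMMwsp factors, 95 by Spearman's rho and 487 among genes read in 10% of cells. The number of clusters was 1 at resolution 0.5 and 10 at 1.5. Without the 2 cells under 10000 reads other than Rn45s, an alternative chosen after seeing the data, 67 variable genes, 295 pairs together and 204 opposed pairs were called. The cause of these shifts was not tested. No paired analysis was possible because the results come from no test. Depth limits single cells, since 1 read was worth a median of 2.71 CPM and up to 276 CPM.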

Other observations

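Genes of the G2 and M phases were held by few growth plate cells, and genes of the S phase by most. Top2a, the topoisomerase of dividing cells, was above 100 CPM in 4 of the 78, of which 1 lay on plate 1 and 3 on plate 2, and 2 of the 4 were cells with Sox10. The summed level of the G2 and M phase list of 12 genes had a median of 0 and a highest value of 8486 CPM, and the 5 highest cells gave 93.6% of it. The S phase list of 13 genes had a read in 69 cells, a median of 504.9 CPM and 41.4% from its 5 highest cells. The immediate early list, whose genes respond within minutes to stimuli, had a median of 470.4 CPM and a highest value of 43200.3 CPM, with 50.4% from the 5 highest cells.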
